A study of Mus musculus with 6 samples.

Results

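The mast cell genes Cma1, Kit, Ms4a2 and Fcer1a were examined in every tumour sample. They were taken by symbol, and all 4 stood among the 770 genes of the table. Tumours of 3 samples were 4NQO-induced oral squamous cell carcinomas (4NQO is a chemical carcinogen) of mice that had been given agonistic anti-CD40, an antibody that activates the CD40 receptor. The other 3 samples were carcinomas of the same kind from 4NQO-exposed mice given vehicle. RNA was taken from formalin-fixed, paraffin-embedded primary tumours. Dose, time, age and the strain background were not given in the sources used here, nor whether each sample was a separate animal, so p-values reflect sample-to-sample spread that could include technical variation.

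Mast cells are tissue-resident cells of the haematopoietic lineage that lie along vessels and in connective tissue, and they are well known in the skin and the oral mucosa. They depend on the receptor tyrosine kinase Kit, bind IgE through the high-affinity receptor FcεRI, and release preformed proteases, among them chymases and tryptases, when that receptor is cross-linked. FcεRI consists of an IgE-binding alpha chain (Fcer1a), a signal-amplifying beta chain (Ms4a2) and a signalling gamma chain shared with other Fc receptors (Fcer1g). Cma1 encodes a mast cell chymase. Kit is less specific, being also found on haematopoietic progenitors, melanocytes and salivary duct cells, and both IgE receptor chains are also made by basophils.

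The promoter windows of the 3 members that are largely restricted to mast cells and basophils are shown because GATA factors are known to drive mast cell genes. Each window runs from 250 bases before to 50 bases after the start site in the RefSeq table (GRCm38.p6), written 5′ to 3′. Capitals mark the letters AGATAA or AGATAG or TGATAA or TGATAG on either strand (the GATA motif) and CACGTG or CATGTG on either strand (an E-box of the kind bound by MITF).
Cma1 promoter, chr14:55944626-55944925, minus strand: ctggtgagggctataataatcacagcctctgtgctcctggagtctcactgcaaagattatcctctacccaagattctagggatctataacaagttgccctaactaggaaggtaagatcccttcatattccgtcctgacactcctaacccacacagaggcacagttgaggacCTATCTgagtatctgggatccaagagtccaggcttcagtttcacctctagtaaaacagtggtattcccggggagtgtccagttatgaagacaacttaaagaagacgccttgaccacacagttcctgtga
Fcer1a promoter, chr1:173227180-173227479, minus strand: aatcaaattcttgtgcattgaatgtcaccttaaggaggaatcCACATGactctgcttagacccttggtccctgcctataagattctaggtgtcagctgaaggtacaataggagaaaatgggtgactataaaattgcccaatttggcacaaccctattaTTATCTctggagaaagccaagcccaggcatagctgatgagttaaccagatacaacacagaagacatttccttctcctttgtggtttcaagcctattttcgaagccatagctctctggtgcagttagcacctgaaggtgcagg
Ms4a2 promoter, chr19:11623670-11623969, minus strand: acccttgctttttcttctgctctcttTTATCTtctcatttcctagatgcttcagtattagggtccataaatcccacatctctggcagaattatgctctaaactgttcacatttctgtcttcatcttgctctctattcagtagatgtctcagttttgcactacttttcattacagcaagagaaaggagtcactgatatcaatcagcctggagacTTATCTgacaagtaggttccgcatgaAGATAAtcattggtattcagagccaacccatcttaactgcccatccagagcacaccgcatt
The Cma1 window held 1 GATA motif, whose first base lay at -79 from the start site. The Fcer1a window held 1 GATA motif at -92 and 1 E-box at -208. The Ms4a2 window held 3 GATA motifs, at -224, -37 and -11, and no motif overlapped another. Neither of the 2 overlapping Kit windows, in which 69.0% of the bases were G or C, held either motif. Of all 32851 promoter windows in that table, 29.8% held the GATA motif and 20.4% the E-box, so such matches are common, and they describe the letters alone.

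Values are log2 normalized counts, and differences are anti-CD40 minus vehicle. Whole counts could be recovered from the deposited values, and they summed to between 333400 and 578598 per library over the 770 genes. The background limit of a library was set at the mean plus 2 SD of the counts of its 8 negative controls, a limit of 24.7 to 26.6 counts. Because each library was scaled by its own factor, between 1.72 and 3.28, the same limit lay at 5.57 log2 in vehicle 3 and at 6.52 log2 in vehicle 2. Of 6 measured squamous epithelial genes, 5 were above background in all 6 libraries, Epcam and Cdh1 among them, while keratin genes were not analysed here. The antibody's target gene Cd40 averaged 6.73 ± 0.49 in anti-CD40 and 6.98 ± 0.42 in vehicle tumours (SD, n = 3 each), with a limma adjusted p of 0.974.

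The 4 genes differed widely in how far they stood above background. Cma1 was above the limit in 6 of 6 libraries, at 3.72 to 10.6 times the limit, and Kit in 6 of 6, at 2.11 to 3.62 times. Fcer1a was above it in 4 of 6 libraries and never by more than 1.55 times. Ms4a2 was above it in 0 of 6, at 0.765 to 0.994 times the limit. In these bulk samples the number of mast cells and the amount of RNA per mast cell cannot be told apart.

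**Figure D1:**
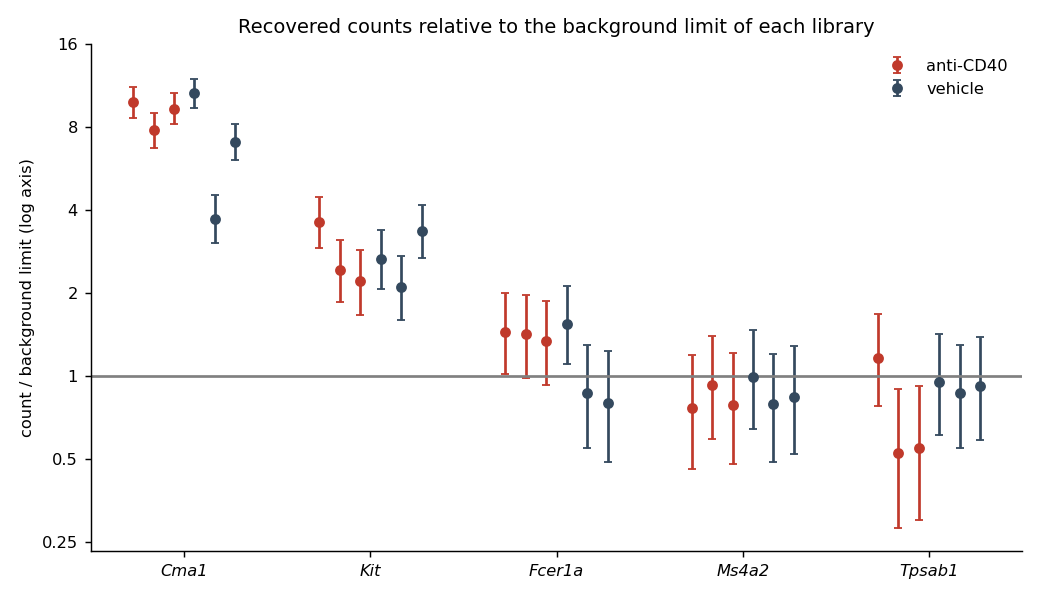
Recovered count of each gene divided by the background limit of the same library (vertical log axis), for anti-CD40 libraries (red, left) and vehicle libraries (dark, right), 3 each, with exact Poisson 95% intervals that cover counting error only. Cma1 and Kit lie above 1 in all 6 libraries, whereas Fcer1a straddles 1, Ms4a2 stays below it, and the tryptase gene Tpsab1 exceeds it in 1 library.

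All 4 genes had higher means in anti-CD40 than in vehicle tumours, by 0.61 for Cma1, 0.57 for Fcer1a, 0.17 for Kit and 0.076 for Ms4a2, and none passed the test. Over all 770 genes, 54.5% had a higher mean in anti-CD40 tumours, and the median difference was 0.038, beside 0.37 for these 4. Without vehicle 3, the number of members with a higher mean was 3 of 4 and their median was 0.20. In that setting 301 of all 770 genes had a higher mean, and the median over all genes was -0.090. Across the table limma found 0 of 770 genes past an adjusted p of 0.05 (0%), with 25 genes (3.25%) at an unadjusted p under 0.05, and limma-voom on the recovered counts also called 0, with 31 at an unadjusted p under 0.05. The 4 members shared an adjusted p of 0.974, the lowest of the whole table. Groups did not overlap, with anti-CD40 higher, for 1 of the 4 members, Fcer1a, and for 6.75% of all genes.

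**Figure D2:**
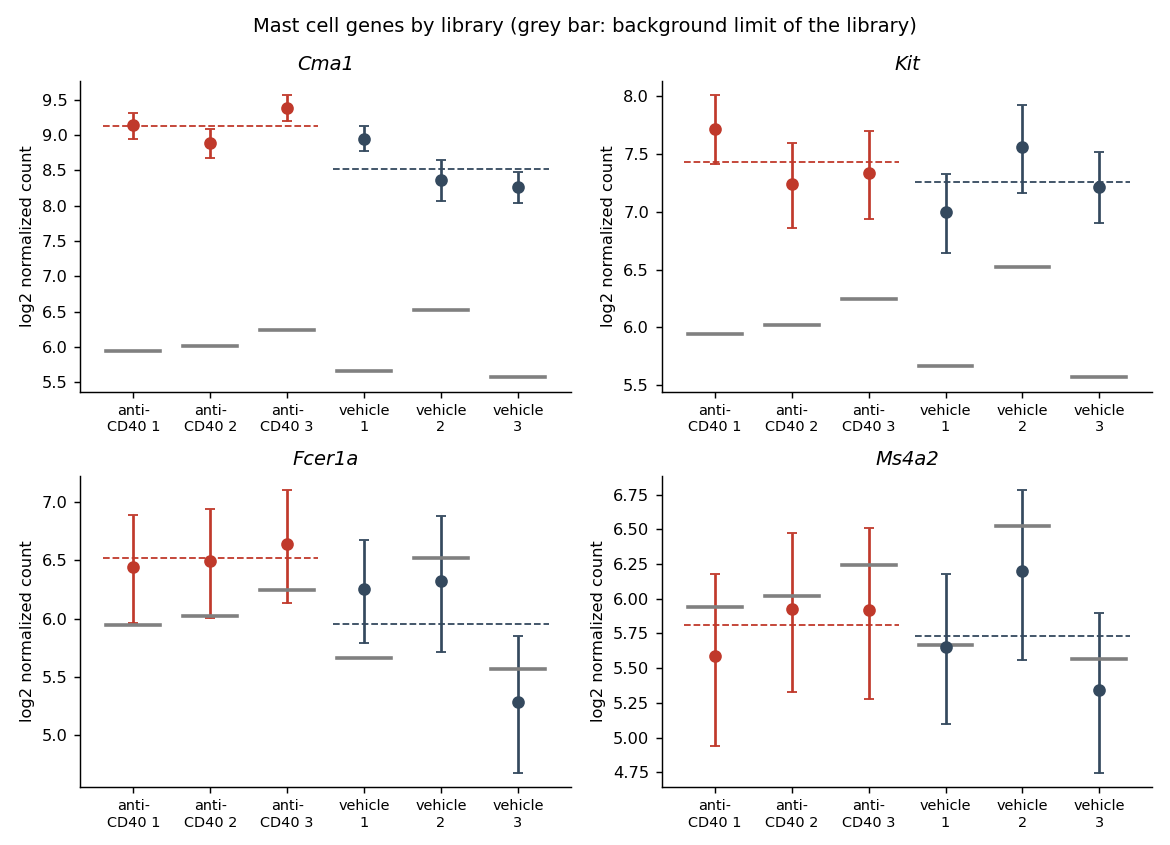
Log2 normalized count of each member in the 3 anti-CD40 libraries (red, left) and the 3 vehicle libraries (dark, right), with exact Poisson 95% intervals of the recovered count carried to this scale. Dashed lines are group means and grey bars the background limit of each library, which the Ms4a2 points do not exceed in any library; each panel has its own vertical range.

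Cma1, the chymase gene, had the lowest unadjusted p of the 4 members and the same adjusted p as the others. Its log2 normalized counts were 9.14, 8.89 and 9.38 in anti-CD40 tumours 1, 2 and 3, against 8.95, 8.36 and 8.26 in vehicle tumours 1, 2 and 3. Vehicle 2 and vehicle 3 lay below every anti-CD40 tumour, but vehicle 1 lay above anti-CD40 2, so the groups overlapped. The means were 9.14 ± 0.25 in anti-CD40 and 8.53 ± 0.37 in vehicle tumours (SD, n = 3 each). The difference was 0.61 (SE 0.27, 95% confidence interval -0.029 to 1.25), which is 1.53-fold with an interval of 0.980 to 2.38. Limma gave an unadjusted p of 0.0587, rank 34 of the 770 genes, and an adjusted p of 0.974. An exact two-sided permutation test of the 6 values gave p = 0.2, and 0.1 is the smallest that 3 against 3 allows. With 1 library left out, the difference was smallest without vehicle 3 (0.48) and largest without vehicle 1 (0.82).

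The recovered Cma1 counts behind these values were 244, 192 and 237 in anti-CD40 and 267, 99 and 176 in vehicle libraries. The exact Poisson 95% interval was 80.5 to 121 for the 99 counts of vehicle 2 and 236 to 301 for the 267 counts of vehicle 1. Carried to the log2 scale these intervals were 8.07 to 8.64 in vehicle 2 and 8.77 to 9.12 in vehicle 1 and did not meet, so these 2 vehicle libraries differed by more than counting error. The highest raw count was in vehicle 1, the library with the largest total. Across the alternatives that changed the scale, the background or the count model, the Cma1 difference ran from 0.54 with limma-voom to 0.66 after background subtraction.

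Kit, the stem cell factor receptor on which mast cells depend, showed no separation of the groups. It stood at 7.72, 7.24 and 7.33 in anti-CD40 tumours 1 to 3, against 6.99, 7.56 and 7.22 in vehicle tumours 1 to 3. The highest value was in anti-CD40 1 and the second highest in vehicle 2, so the groups overlapped. Means were 7.43 ± 0.25 in anti-CD40 and 7.26 ± 0.28 in vehicle tumours (SD, n = 3 each), a difference of 0.17 (SE 0.25, 95% confidence interval -0.42 to 0.77, limma adjusted p = 0.974). On the linear scale that interval runs from 0.746-fold to 1.70-fold, so neither a modest fall nor a modest rise can be told from no change here. The difference was 0.029 without anti-CD40 1 and 0.042 without vehicle 1, but 0.32 without vehicle 2 and 0.27 without anti-CD40 2. Counts were 90, 60 and 56 in anti-CD40 and 67, 56 and 84 in vehicle libraries.

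Genes of haematopoietic progenitors, which can carry Kit, and granule genes of immature myeloid cells were set beside it, as levels in bulk RNA. The granule genes are not taken here as marks of Kit-bearing cells. All 7 measured granule genes of immature myeloid cells had higher means in anti-CD40 tumours, as did 54.5% of all genes. None of the 7 passed the test, and 1 of 7, Lcn2, was above background in all 6 libraries. Their summed linear level was 6643, 2666 and 815 in anti-CD40 libraries 1 to 3 and 1810, 4762 and 459.6 in vehicle libraries 1 to 3. The 2 libraries with the highest Kit, anti-CD40 1 and vehicle 2, were also the 2 with the highest granule sum. The genes of haematopoietic progenitors, taken as a sum, did not share this order. Their summed linear level was 7977, 6565 and 7536 in anti-CD40 libraries 1 to 3 and 7601, 5461 and 6262 in vehicle libraries 1 to 3. It was lowest in vehicle 2, where Kit was second highest, and second highest in vehicle 1, where Kit was lowest. Cd34 had the highest level of the 4 progenitor genes and makes up most of this sum, to which Flt3 adds little. The mean log2 level of the 4, in which each gene counts equally, was also lowest in vehicle 2 (9.46) and was highest in vehicle 1 (9.84). Neither measure separates progenitors from other cells that express these genes. With 1 library left out, the number of granule genes with higher means ranged from 3 of 7, without anti-CD40 1, to 7 of 7, and was 4 of 7 without vehicle 3. Camp, the cathelicidin gene of the granule list, was 11.17, 8.87 and 5.14 in anti-CD40 and 4.27, 10.81 and 4.84 in vehicle libraries. Lcn2, the lipocalin gene, which epithelium also expresses, was 10.16 ± 0.97 in anti-CD40 and 9.42 ± 1.46 in vehicle tumours, and the lactoferrin gene Ltf 6.70 ± 0.63 and 6.13 ± 1.24. Of 4 progenitor genes, 3 had higher means and 0 passed the test. Among them Flt3, a cytokine receptor gene, was 5.85 ± 0.34 in anti-CD40 and 6.60 ± 0.39 in vehicle tumours, Cd34 was 12.31 ± 0.33 and 12.07 ± 0.27, and Thy1, which T cells and fibroblasts also express, was 10.05 ± 0.24 and 9.89 ± 0.44. Dmbt1, a gene of glandular epithelium picked after its values were seen, was 17.23, 15.17 and 13.89 in anti-CD40 and 10.06, 16.96 and 13.83 in vehicle libraries. It too was highest in anti-CD40 1 and vehicle 2 and lowest in vehicle 1, as Kit was. Since its values were known when it was picked, this match carries no weight. A part of glandular epithelium in the Kit values was not tested. No measurement here counts Kit-bearing cells, and the part of such cells in the Kit values was not tested.

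Fcer1a, the IgE-binding chain, was the single member whose groups did not overlap on the log2 scale. It was 6.44, 6.49 and 6.64 in anti-CD40 tumours 1 to 3, against 6.25, 6.32 and 5.28 in vehicle tumours 1 to 3. The 3 anti-CD40 values lay close together, and vehicle 3 was set far below all other libraries. The means were 6.52 ± 0.10 in anti-CD40 and 5.95 ± 0.58 in vehicle tumours (SD, n = 3 each), a difference of 0.57 (SE 0.32, 95% confidence interval -0.17 to 1.32, limma adjusted p = 0.974). An exact two-sided permutation test gave p = 0.1, the smallest this design allows. That value follows from the groups not overlapping and adds nothing to it. The difference was 0.24 without vehicle 3, and 1.09 after the mean of the negative controls was subtracted.

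The Fcer1a values rested on few counts. They were 36, 35 and 34 in anti-CD40 libraries, all 3 above background, and 39, 23 and 20 in vehicle libraries, of which vehicle 1 alone was above it. As counts the groups overlapped, since vehicle 1, the library with the largest total, had the highest count. Relative to the limit they overlapped too, at 1.55 times in vehicle 1 against 1.34 to 1.45 times in anti-CD40 libraries. A count of 35 has an exact Poisson 95% interval of 24.4 to 48.7, and a count of 20 one of 12.2 to 30.9. Vehicle 2 had 23 counts, below its limit of 26.6, yet a log2 value above that of vehicle 1 with 39 counts, since vehicle 2 has the largest scaling factor of the 6. The same factor lifted the background limit of vehicle 2 to 6.52 log2, above its Fcer1a value of 6.32. Vehicle 3 has the smallest factor, 1.72 against 3.28 in vehicle 2. At counts of 20 and 23, both below the limit, their log2 values were 5.28 and 6.32.

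Ms4a2, the beta chain, was not detectable above background at this depth. Its counts were 19, 23 and 20 in anti-CD40 libraries and 25, 21 and 21 in vehicle libraries, and they exceeded the highest negative control of the same library in 2 of 6. On the log2 scale it was 5.59, 5.92 and 5.92 in anti-CD40 tumours 1 to 3, against 5.66, 6.20 and 5.34 in vehicle tumours 1 to 3. The highest and the lowest value were both in vehicle libraries, vehicle 2 with the largest and vehicle 3 with the smallest scaling factor, at equal counts. The difference of 0.076 (SE 0.28, 95% confidence interval -0.58 to 0.73, limma adjusted p = 0.974) turned to -0.28 after subtraction of the negative controls and to -0.12 without vehicle 3. It was 0.31 without vehicle 2, 0.19 without anti-CD40 1, 0.038 without vehicle 1, and 0.021 and 0.019 when anti-CD40 3 or anti-CD40 2 was left out.

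**Figure D3:**
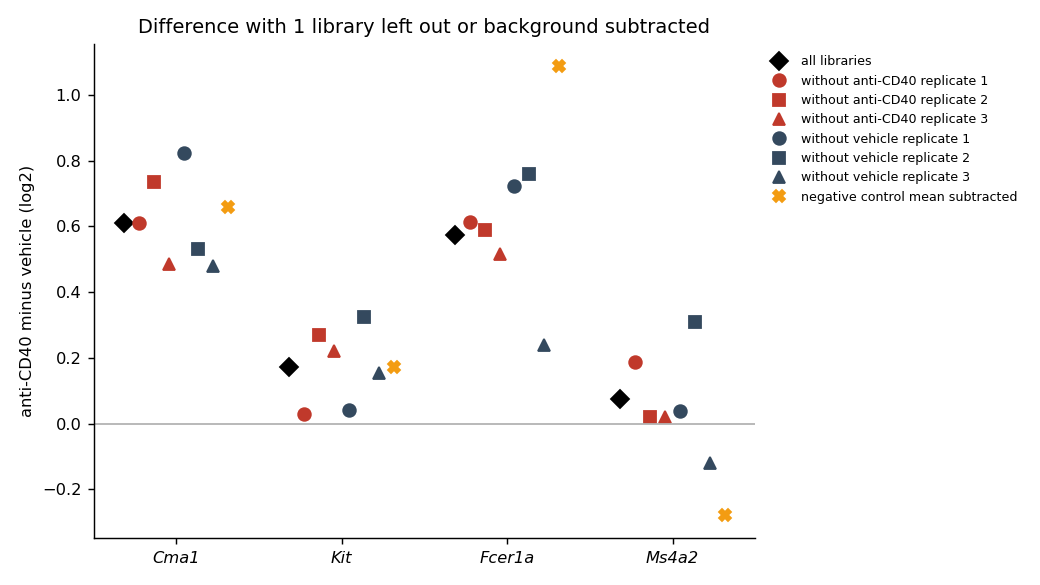
Difference between anti-CD40 and vehicle tumours (log2) for each member with all libraries (black diamond), with 1 library left out (red, an anti-CD40 library; dark, a vehicle library) and after subtraction of the negative control mean (orange cross). Cma1, Kit and Fcer1a stay above 0 in each of these, and Ms4a2 falls below 0 without vehicle 3 and after background subtraction.

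The gamma chain gene Fcer1g, which macrophages and other Fc receptor-bearing cells also express, was plainly detected, at 6.32 to 10.5 times the limit. It was 8.83, 9.07 and 8.91 in anti-CD40 tumours 1 to 3, against 8.93, 9.12 and 8.42 in vehicle tumours 1 to 3, with overlapping groups and a difference of 0.11 (SE 0.25, limma adjusted p = 0.974). Of 17 measured genes of IgE receptor signalling, Fcer1g included, 15 were above background in all libraries, 12 had higher and 5 lower means in anti-CD40 tumours, and 0 passed the test in either direction. Their median difference was 0.088, beside 0.038 over all genes, and the number with higher means ranged from 5 to 12 with 1 library left out. The members of lowest p above background were the stress kinase gene Mapk8 (9.55 ± 0.40 in anti-CD40 and 9.24 ± 0.12 in vehicle), the proximal kinase gene Syk (8.92 ± 0.22 and 8.66 ± 0.56) and the transcription factor gene Nfatc1 (8.46 ± 0.49 and 8.25 ± 0.19).

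Of the 3 other mast cell genes measured, the protease gene was near background. Tpsab1, which encodes a mast cell tryptase, had 29, 13 and 14 counts in anti-CD40 libraries and 24, 23 and 23 in vehicle libraries, and was above background in anti-CD40 1 alone. Its log2 values were 6.15, 5.18 and 5.45 in anti-CD40 tumours and 5.60, 6.32 and 5.46 in vehicle tumours, a difference of -0.20 (SE 0.35, 95% confidence interval -1.02 to 0.62, limma adjusted p = 0.974). At this depth it could not be set against Cma1, whose difference of 0.61 lies within that interval. Il1rl1 encodes the interleukin 33 receptor ST2 of mast cells, regulatory T cells and type 2 lymphoid cells. It was 7.001, 9.52 and 7.03 in anti-CD40 tumours 1 to 3, against 7.29, 7.01 and 6.41 in vehicle tumours 1 to 3. Anti-CD40 2, with 298 counts where the other libraries had 38 to 83, stood alone, and none of the 4 members had its highest value there. Cd63, a granule membrane gene that most cells express, was 13.07 ± 0.21 in anti-CD40 and 12.88 ± 0.29 in vehicle tumours.

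**Figure D4:**
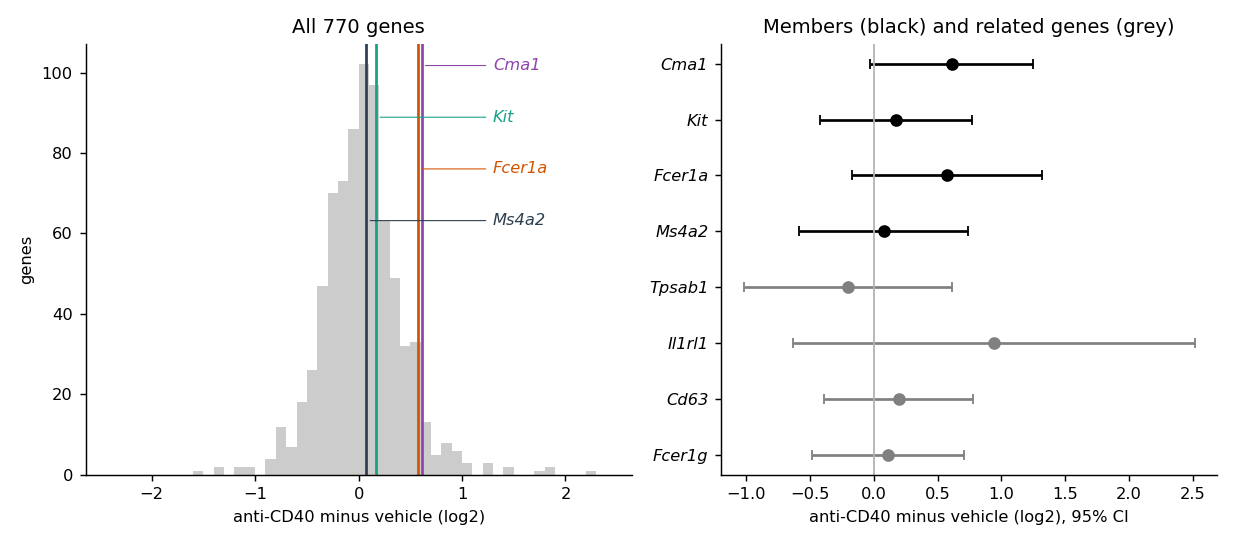
Left, histogram of the difference between anti-CD40 and vehicle tumours (log2) for all 770 genes with the 4 members marked. Right, the differences of the members (black) and of Tpsab1, Il1rl1, Cd63 and Fcer1g (grey) with limma 95% confidence intervals, each of which includes 0.

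Most growth factors of mast cells were not detectable at this depth. Of 10 measured genes in that list, the cytokine genes Il3, Il4, Il9 and Csf2 never exceeded the limit, and 5 genes were above it in all 6. Signs were evenly split, with 5 higher and 5 lower, a median difference of 0.0093 and 0 past the test. The members of lowest p above background were Stat5b, a transcription factor gene downstream of Kit and cytokine receptors (9.998 ± 0.27 in anti-CD40 and 9.82 ± 0.07 in vehicle), the common beta receptor chain gene Csf2rb (8.77 ± 0.45 and 8.52 ± 0.48) and the kinase gene Jak2 (10.26 ± 0.06 and 10.14 ± 0.16). The gene of the Kit ligand itself was not analysed here.

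Genes of the type 2 axis, in which mast cells, eosinophils and basophils act together, were mixed. Of 16 measured, 9 had higher and 7 lower means in anti-CD40 tumours, 0 passed the test, and the median difference was 0.13. Ccl11, which encodes the eosinophil chemoattractant eotaxin, was 11.25 ± 0.28 in anti-CD40 and 10.73 ± 0.26 in vehicle tumours, a difference of 0.52 (SE 0.25, limma adjusted p = 0.974). Il4, Il13, Il25, Ccl26 and Il13ra2 did not exceed the limit in any library, and Gata3 was 5.71 ± 0.43 and 6.08 ± 0.36, above background in 3 of 6.

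Basophil and eosinophil genes were measured because basophils share the IgE receptor chains. The 5 rows of basophil genes on the panel stand for 4 distinct genes, since Gpr44 is an older symbol of Ptgdr2, and all are also expressed by other cells, and genes confined to basophils were not analysed here. Their summed linear level was 549, 469 and 745 in anti-CD40 and 493, 669 and 400.7 in vehicle libraries, with 3 of 5 rows higher and 0 past the test. The Ptgdr2 row differed by 0.077, above background in 1 library, and the Gpr44 row by -0.025, above background in 5. The highest sum was in anti-CD40 3 and the lowest in vehicle 3, as for Fcer1a. Vehicle 3 also had the lowest median log2 value over all genes, 7.68 against 7.90 to 8.19 in the other libraries. The part of basophils in the Fcer1a values was not tested. Of that list, the platelet and progenitor integrin gene Itga2b was 7.60 ± 0.84 in anti-CD40 and 7.09 ± 0.58 in vehicle tumours, the interleukin 3 receptor gene Il3ra 7.28 ± 0.22 and 7.21 ± 0.35, and the activation marker gene Cd69 6.43 ± 0.29 and 6.62 ± 0.18. Of 3 eosinophil genes, Il5ra was at or below background in every library. Prg2, the major basic protein gene of eosinophils, was 9.24, 7.09 and 5.14 in anti-CD40 and 4.40, 8.95 and 4.32 in vehicle libraries, high in the same 3 libraries as Camp.

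Of the 6 squamous epithelial genes, 5 had lower means in anti-CD40 tumours, with a median difference of -0.24 and 0 past the test. Over all 770 genes, 350 had lower means. With 1 library left out, between 1 and 3 of the 6 were higher. The adhesion gene Cdh1 (E-cadherin) was 12.01, 12.13 and 11.94 in anti-CD40 tumours 1 to 3, against 12.51, 12.25 and 12.41 in vehicle tumours 1 to 3, and the groups did not overlap, as for 3.51% of all genes with anti-CD40 lower. The hemidesmosome integrin genes Itga6 and Itgb4 had overlapping groups, at 12.14 ± 0.65 in anti-CD40 and 12.72 ± 0.58 in vehicle tumours for Itga6 and 11.31 ± 0.51 and 11.75 ± 0.46 for Itgb4. Whether these genes have a part in the mast cell values was not tested.

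The genes whose pattern over the 6 libraries was nearest to Cma1 and Kit were taken by Pearson's r among the 522 other genes above background in all libraries. For Cma1 they were Ccl11 (r = 0.99, Spearman's rho = 1), Tnfsf13, which encodes the cytokine APRIL (r = 0.98, rho = 0.94), and Vwf, the von Willebrand factor gene of endothelium (r = 0.97, rho = 0.94). For Kit they were S100b, a gene of nerve sheath, melanocytes and some dendritic cells (r = 0.98, rho = 1), the transcription factor gene Atf1 (r = 0.94, rho = 0.94) and the mesothelin gene Msln (r = 0.94, rho = 0.89). With so few libraries high values are easily reached, and 11 genes exceeded r = 0.9 with Cma1 and 10 with Kit. All points share the libraries and their scaling factors, and Cma1 and Kit themselves had r = 0.058 (rho = 0.31). These are descriptions of 6 points.

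Ccl11 was 11.27, 10.97 and 11.52 in anti-CD40 tumours 1 to 3, against 11.03, 10.63 and 10.53 in vehicle tumours 1 to 3. As for Cma1, anti-CD40 3 was highest, vehicle 3 lowest, and vehicle 1 above anti-CD40 2. S100b was 8.04, 7.04 and 7.38 in anti-CD40 tumours 1 to 3, against 6.53, 7.72 and 6.82 in vehicle tumours 1 to 3, and ranked the libraries exactly as Kit did. Msln was 11.69, 9.96 and 9.05 in anti-CD40 and 7.13, 11.73 and 8.86 in vehicle libraries, a far wider range than that of Kit.

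**Figure D5:**
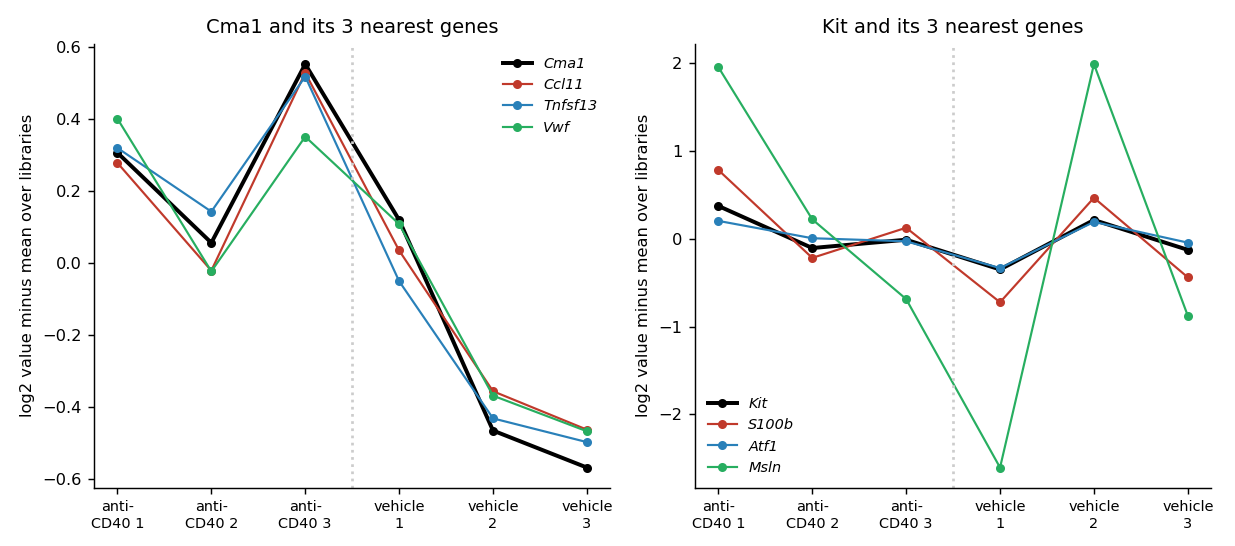
Log2 value minus the gene's mean over the 6 libraries for Cma1 (left) and Kit (right), each with the 3 genes of highest Pearson's r; the lines only join points of a gene, and each panel has its own vertical range. Cma1 and its nearest genes are highest in anti-CD40 1 or 3 and lowest in vehicle 3, while Kit and its nearest genes are high in anti-CD40 1 and vehicle 2 and lowest in vehicle 1.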

How the data were processed

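A single table of log2 normalized counts (so named) was deposited by the authors for 3 anti-CD40 and 3 vehicle samples; it holds 770 genes, 6 positive and 8 negative controls. RNA came from fixed tumours, per the labels' protocols. The sources used here do not give platform, software or normalization. Subtracting 4.55 from the linear values and dividing by a factor per library gave whole numbers, within 0.05, for all 4704 values, which were used as counts. The offset understates differences of genes with few counts. Replicate counts differed far beyond counting noise (chi-square per degree of freedom 64.2 to 121), so no library was treated as a duplicate.

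Groups were compared with limma 3.58.1 in R 4.3.3 (lmFit and eBayes, two-sided, Benjamini-Hochberg over all 770 genes, threshold 0.05) on the deposited values. The procedure was tested on simulated data. Alternatives were centring on 20 housekeeping genes, quantile normalization, background subtraction, a filter, trend, robust fitting, limma-voom, a replicate block and leaving out each library. Poisson intervals cover counting error only. Named genes are the members, Cd40, per list up to 3 genes of lowest p above background in at least 3 libraries, list genes never above background, and 3 nearest genes per well-detected member; a gene this rule covers is not reported here. Members and lists were chosen with earlier results of these data known; Fcer1g, Tpsab1, Epcam, Ccl4, Dmbt1 and Masp2 are named for their role or chosen after their values were seen. Promoter windows are from RefSeq (GRCm38.p6); the table names no build. Python 3.11.15 with matplotlib 3.10.9 drew the plots.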

Additional observations from a re-analysis of the deposited data

How the results depend on the processing

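Cma1, Kit and Fcer1a kept a positive difference, without passing the adjusted threshold, under each of the 14 alternatives run. The filter, trend, robust fitting and replicate block leave the differences unchanged by construction, so those settings bear on the p-values alone. With 1 library left out, the differences ranged from 0.48 to 0.82 for Cma1, 0.029 to 0.32 for Kit, 0.24 to 0.76 for Fcer1a and -0.12 to 0.31 for Ms4a2. Subtracting the negative controls turned Ms4a2 to -0.28, moved Fcer1a to 1.09 and left 1 gene called, Masp2, itself at or below background in every library, where the other fits called 0; the cause was not tested. The filter for genes above background in at least 3 libraries removes Ms4a2, so it has no value there.

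Replicate numbers are shared between the groups. Deviations of same-numbered samples had correlations of -0.43, 0.069 and 0.28, and those of differently numbered samples ran from -0.56 to 0.48. With so few libraries these values cannot tell whether the numbers pair the samples. With the replicate number as a block the differences are by construction those without it (Cma1 0.61, Kit 0.17, Fcer1a 0.57, Ms4a2 0.076), 0 genes were called, and the lowest adjusted p was 0.964. The mean difference changed sign without 1 of the libraries for 6 of 10 gene lists. With 3 samples a group, Fcer1a within 1.55 times the background limit and Ms4a2 below it, small differences in these 2 genes cannot be seen at this depth.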

Other observations

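Cytokines, chemokines and other products that mast cells share with many cells showed no common direction. Of 15 measured, 6 had higher and 9 lower means in anti-CD40 tumours, 0 passed the limma test, and the median difference was -0.089; with 1 library left out, between 3 and 11 were higher. Cxcl1, a neutrophil chemoattractant gene, was 6.48, 8.61 and 6.72 in anti-CD40 tumours 1 to 3, against 8.16, 8.36 and 8.67 in vehicle tumours 1 to 3. Anti-CD40 1 and 3 lay below every vehicle tumour and anti-CD40 2 among them. Csf1, the macrophage growth factor gene, was 9.19 ± 0.32 in anti-CD40 and 8.78 ± 0.40 in vehicle tumours (SD, n = 3 each), and the monocyte chemoattractant gene Ccl7 was 7.59 ± 0.31 and 7.16 ± 0.45. Ccl4, above background in 2 of 6 libraries, was the single gene of this list whose groups did not overlap, at 5.60 ± 0.22 in anti-CD40 and 6.07 ± 0.27 in vehicle tumours, where 3.51% of all genes had such groups with anti-CD40 lower. Il4, Il13, Csf2 and Ccl3 were at or below background in every library.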
